A study of Mus musculus with 6 samples.

Results

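Chemokines and chemokine receptors were followed in the refed epididymal white adipose tissue (WAT) of mice that lack *Armc5* in adipocytes. The genes were chosen by symbol, as *Ccl*, *Cxcl*, *Ccr* and *Cxcr* followed by a number, with *Cx3cl1* and *Cx3cr1*. This gave 55 of the 24346 genes in the table, of which 38 are ligands and 17 are receptors. The groups were AdArmc5 KO (n = 3) and Armc5 flox (n = 3), all 24 weeks old and refed for 6 h after a fast of 24 h. Both carry *Armc5* alleles with LoxP sites around exons 2 and 3, from which *CAG-FLPe* had removed the *lacZ* and neomycin resistance cassettes. AdArmc5 KO also carry *Adipoq-Cre*, which acts in adipocytes, so the leukocytes, vessels and stroma of the fat pad keep the gene. Littermates were compared, but the labels do not give litters, and they do not state that each library is a separate mouse, so p-values measure the spread between these libraries.

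Chemokines are small secreted proteins that guide leukocytes along a concentration gradient. They are classed by the spacing of their first cysteines into the CC, CXC and CX3C families, and they signal through receptors that couple to inhibitory G proteins. Inflammatory chemokines are made by activated macrophages, stromal cells and endothelium, among other cells. Homeostatic chemokines such as CCL19, CCL21, CXCL12 and CXCL13 position lymphocytes and stem cells. In adipose tissue, CCL2 and its receptor CCR2 are best known for bringing monocytes into the fat of obese mice. In bulk RNA, fewer cells of a type and less RNA per cell cannot be told apart.

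The libraries held between 25320769 and 38311535 fragments, and values are FPKM, in which fragments are scaled to exon length and to library size, given in the order of replicates 1, 2 and 3 of a genotype. Adipocyte markers were abundant in all libraries, with summed FPKM between 26490 and 48550. *Armc5* was at 3.66, 4.48 and 5.82 FPKM in AdArmc5 KO, against 5.12, 5.66 and 5.58 FPKM in Armc5 flox. The library labelled AdArmc5 KO replicate 3 was thus above every Armc5 flox library and goes against its label for this gene, although the value counts exons outside the deleted ones and cells without Cre, and for *Ccl8*, *Ccl7*, *Ccl2*, *Ccl12*, *Ccl5*, *Ccl6*, *Ccl9*, *Ccl22*, *Cxcl10*, *Cxcl14* and *Cxcr3* the values without this library are also given. *Foxj1*, a regulator of motile cilia, was at 62.4 FPKM in AdArmc5 KO replicate 2 and at 76.0 FPKM in Armc5 flox replicate 1, and at 0.708 FPKM or less elsewhere. *Akr1b7*, an aldose reductase of the vas deferens, was at 3122 FPKM in the library labelled AdArmc5 KO replicate 3 and at 17.4 FPKM or less elsewhere.

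The promoters of 4 ligands are shown first, 3 with an unadjusted limma p under 0.05 and the fourth a neighbour for comparison. The 250 bases before the start were taken from RefSeq (GRCm38.p6), which gave a window for 39 of the 55 genes, and *Ccl7* and *Ccl5* are among those without one. *Ccl8* and *Ccl22* had the lowest p-values of the ligands. *Ccl22* was tested only because it reached 1 FPKM in the 3 AdArmc5 KO libraries, which favoured its place. *Cxcl10* and *Cxcl9* lie side by side and encode ligands of the same receptor. Capitals mark matches to an interferon-stimulated response element (ISRE, GAAA and GAAA with any 2 bases between) or to an NF-kappaB motif (GGG and TTCC with any 3 bases between), searched on both strands together with a STAT motif (GAS, TTCNNNGAA). Each is written in the direction of its gene.
*Ccl8*, chr11:82114935-82115184, forward strand, no match: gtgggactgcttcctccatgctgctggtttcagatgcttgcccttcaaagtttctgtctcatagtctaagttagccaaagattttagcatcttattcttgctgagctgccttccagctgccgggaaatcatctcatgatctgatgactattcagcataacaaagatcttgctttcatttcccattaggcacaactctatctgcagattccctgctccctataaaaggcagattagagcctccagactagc
*Ccl22*, chr8:94745434-94745683, forward strand, no match: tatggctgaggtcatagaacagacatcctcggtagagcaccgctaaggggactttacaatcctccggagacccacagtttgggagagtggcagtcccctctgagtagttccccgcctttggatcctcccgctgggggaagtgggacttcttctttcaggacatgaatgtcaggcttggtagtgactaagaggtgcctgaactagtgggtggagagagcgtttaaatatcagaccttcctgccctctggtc
*Cxcl10*, chr5:92348890-92349139, reverse strand, 1 ISRE and 2 NF-kappaB matches: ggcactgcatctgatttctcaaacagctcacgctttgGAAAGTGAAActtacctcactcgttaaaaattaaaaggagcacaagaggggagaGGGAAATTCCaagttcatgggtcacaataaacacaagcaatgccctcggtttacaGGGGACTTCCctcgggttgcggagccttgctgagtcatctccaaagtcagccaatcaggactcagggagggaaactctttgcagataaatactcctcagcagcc
*Cxcl9*, chr5:92328080-92328329, reverse strand, no match: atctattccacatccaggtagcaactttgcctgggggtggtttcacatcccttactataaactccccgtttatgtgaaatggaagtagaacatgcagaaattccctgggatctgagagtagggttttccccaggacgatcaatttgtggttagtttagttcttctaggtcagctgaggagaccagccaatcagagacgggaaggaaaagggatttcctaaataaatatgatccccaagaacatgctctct

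In *Cxcl10* the ISRE match lay 213 to 204 bases before the start and the NF-kappaB matches at 159 to 150 and 104 to 95. An ISRE match was present in 3 of the 46 windows of chemokine and receptor genes (6.52%), those of *Cxcl10*, *Ccl19* and *Cxcl14*, and in 2.98% of all 32851 windows. An NF-kappaB match was present in 9 of the 46 (19.6%) and in 4.65% of all windows, with the closely related neutrophil chemokine genes *Cxcl1*, *Cxcl2* and *Cxcl3* among them. The GAS motif was in 3 of the 46 (6.52%) and in 7.02% of all windows. A match is a description of these letters and not a measured binding site.

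Across the family, most ligands that could be tested had a positive log2 fold change, and 3 of the 4 genes of monocyte chemoattractant proteins (MCP), *Ccl8*, *Ccl7* and *Ccl2*, had the highest ones. This order depended on the scale, on single libraries and on a macrophage covariate. *Ccl22* was highest at a pseudocount of 0.1 (2.06, against 1.90 for *Ccl8*) and in normalized counts (2.23), and without Armc5 flox replicate 3 the order was *Ccl8* (1.33), *Ccl22* (1.08) and *Cxcl10* (1.04). Without AdArmc5 KO replicate 1 it was *Ccl8* (1.54), *Ccl21a* (1.365) and *Cxcl14* (1.27). With the mean of macrophage markers as a covariate it was *Ccl21a* (1.52), *Cxcl14* (1.48) and *Ccl12* (1.405). Of the 38 ligands, 22 were expressed at 1 FPKM or more in 3 or more libraries and were tested, with 17 above 0 and 5 below. Their median log2 fold change was 0.28, where the fold change is that of FPKM + 1 in AdArmc5 KO over Armc5 flox. This median was 0.12 without Armc5 flox replicate 3, 0.50 without Armc5 flox replicate 1, 0.48 with AdArmc5 KO replicate 1 left out and 0.445 with the one labelled AdArmc5 KO replicate 3 left out. Of the 17 receptors, 8 were tested, 7 were above 0 and 1 was below, with a median of 0.31, which was 0.18 without Armc5 flox replicate 1, 0.17 without Armc5 flox replicate 3 and 0.50 without Armc5 flox replicate 2. Among all 12670 genes tested the median was −0.03, and 43.5% had a log2 fold change above 0. Summed FPKM of the ligands was 724, 683 and 503 in AdArmc5 KO, against 495, 608 and 320.1 in Armc5 flox, so the totals overlapped.

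No gene passed an adjusted p of 0.05 by limma with Benjamini-Hochberg adjustment, in the family or in the whole table (0.0% of genes tested), so each difference given here is a description of these libraries. The authors' own analysis of this RNA-seq lists genes at an FDR under 0.05, so the count of 0 holds for this limma fit to 3 libraries per genotype. At an unadjusted p under 0.05, limma had 425 genes (3.35%), 276 of them higher in AdArmc5 KO (2.18%). In the family, 5 ligands and 0 receptors were higher at that threshold and 0 members were lower, against 1.18% of all genes tested. The 5 ligands were *Ccl8*, *Ccl22*, *Ccl7*, *Ccl5* and *Cxcl10*, each with an adjusted p of 0.983, and they were also the 5 tested members whose groups did not overlap. Of these, *Ccl22* passed the filter on low values only through AdArmc5 KO, which favoured its place in both counts. Groups did not overlap for 8.8% of all genes tested, with AdArmc5 KO higher for 3.54% and lower for 5.26%, and no tested member was in the last class. With both libraries that held *Foxj1* left out, the log2 fold change was 2.17 for *Ccl8*, 1.54 for *Ccl22*, 1.46 for *Ccl7*, 1.08 for *Ccl5* and 1.34 for *Cxcl10*, and *Ccl7* no longer had an unadjusted p under 0.05 (0.0735). A log2 fold change above 1 was found for 6 ligands, *Ccl22* among them, and for 138 genes of all those tested (1.09%). The number of ligands was 3 when Armc5 flox replicate 3 was left out, and 4 when AdArmc5 KO replicate 1 and Armc5 flox replicate 2 both were.

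**Figure D1:**
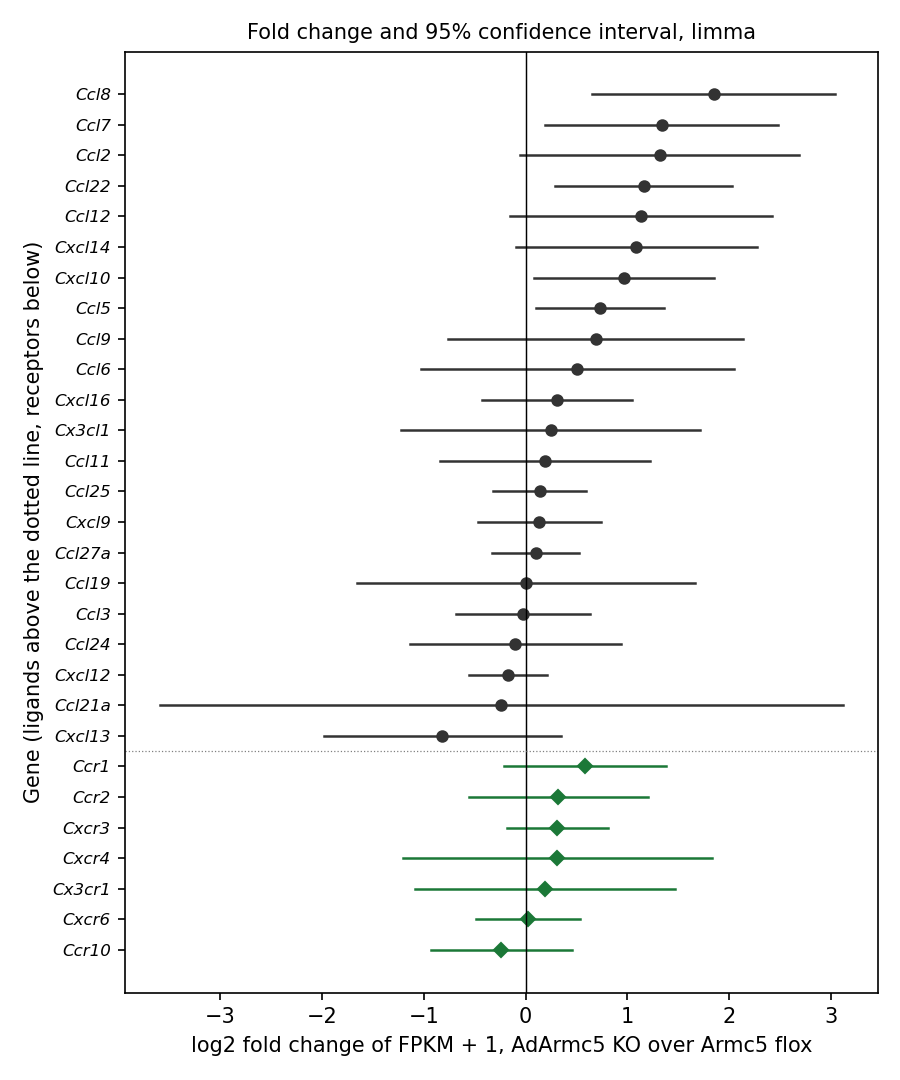
log2 fold change of FPKM + 1 (AdArmc5 KO over Armc5 flox, horizontal axis) with its 95% confidence interval from limma for the 22 ligands (black circles, above the dotted line) and 7 of the 8 receptors (green diamonds, below it) that were tested. The intervals of 5 ligands, *Ccl8* (1.85), *Ccl7*, *Ccl22*, *Cxcl10* and *Ccl5* (0.73), lie above 0 without adjustment. *Ccl22* passed the filter only through AdArmc5 KO. The intervals of the other ligands, with *Ccl2*, *Ccl12* and *Cxcl14* among them, and of the 7 receptors drawn cross 0.

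The 4 MCP genes had higher mean expression in AdArmc5 KO. *Ccl2*, *Ccl7* and *Ccl12* encode ligands of CCR2, the receptor by which inflammatory monocytes leave the marrow and enter tissues, whereas mouse CCL8 is known as a ligand of CCR8. *Ccl2*, *Ccl7*, *Ccl12* and *Ccl8* lie beside *Ccl11* and *Ccl1* within 144.2 kb of chromosome 11 (82035577 to 82179812, GRCm38.p6). *Ccl8* (NCBI Gene 20307), a chemokine of tissue macrophages, was at 130.3, 73.9 and 62.9 FPKM in AdArmc5 KO, against 31.7, 34.4 and 10.7 FPKM in Armc5 flox. The lowest AdArmc5 KO library was above the highest Armc5 flox library. Its mean was 89.0 ± 36.1 FPKM in AdArmc5 KO and 25.6 ± 12.99 FPKM in Armc5 flox (SD, n = 3 each). Its log2 fold change of 1.85 (standard error 0.49) was number 10 from the top among all genes tested, with an unadjusted p of 0.00864 from limma. These values rest on 791 to 1053 fragments in AdArmc5 KO and 97 to 360 in Armc5 flox.

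*Ccl7*, which also binds CCR1 and CCR3, was at 13.4, 9.87 and 4.68 FPKM in AdArmc5 KO, against 4.08, 4.11 and 1.13 FPKM in Armc5 flox. The groups were apart by little, and the lowest AdArmc5 KO library was that labelled replicate 3. The log2 fold change was 1.34 (standard error 0.47, unadjusted p = 0.0285, limma). *Ccl2* (MCP-1), the main monocyte attractant of adipose tissue, was at 25.8, 10.7 and 5.52 FPKM in AdArmc5 KO, against 4.74, 6.43 and 2.11 FPKM in Armc5 flox. Armc5 flox replicate 2 lay above the AdArmc5 KO library with the lowest value, and the log2 fold change was 1.32 (standard error 0.57, unadjusted p = 0.0567, limma). *Ccl12* (MCP-5 of the mouse) was at 7.37, 7.91 and 6.21 FPKM in AdArmc5 KO, against 8.02, 1.67 and 1.13 FPKM in Armc5 flox. A single Armc5 flox library, replicate 1, which also held *Foxj1*, was as high as AdArmc5 KO for this gene. The log2 fold change was 1.13 (standard error 0.53, unadjusted p = 0.0755, limma). Without that library it was 1.77 (unadjusted p = 0.000135), and without Armc5 flox replicate 3 it was 0.73 (unadjusted p = 0.220). With both libraries that held *Foxj1* left out it was 1.705 (unadjusted p = 0.00075).

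Among these 4 genes *Ccl8* made up most of the FPKM in every library, and summed FPKM was 177, 102 and 79.3 in AdArmc5 KO, against 48.5, 46.6 and 15.0 in Armc5 flox. The 2 genotypes did not overlap in this sum. Over the 3 CCR2 ligands alone it was 46.6, 28.5 and 16.4 in AdArmc5 KO, against 16.8, 12.2 and 4.36 in Armc5 flox, and the lowest AdArmc5 KO library lay below the highest Armc5 flox library. The difference between genotypes in these sums depended in part on Armc5 flox replicate 3, the lowest library for all 4 genes. Without it, the log2 fold change was 1.33 for *Ccl8* (unadjusted p = 0.00948), 0.92 for *Ccl7* (unadjusted p = 0.0736) and 0.96 for *Ccl2* (unadjusted p = 0.170), and *Ccl8* was the only ligand left at an unadjusted p under 0.05 in limma. Without the library labelled AdArmc5 KO replicate 3, it was 2.06 for *Ccl8*, 1.72 for *Ccl7*, 1.80 for *Ccl2* (unadjusted p = 0.0139) and 1.22 for *Ccl12*. For *Ccl2* it was 0.78 (unadjusted p = 0.142) without AdArmc5 KO replicate 1, its highest library. *Ccl7* also passed that threshold no longer without AdArmc5 KO replicate 1 (1.04) or replicate 2 (1.25). *Ccl11*, which sits between *Ccl7* and *Ccl12* in the same cluster, is described with the CCR3 ligands and had a log2 fold change of 0.19, and *Ccl1* was listed at 0 in 3 libraries and at 0.252 FPKM or less in the others.

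**Figure D2:**
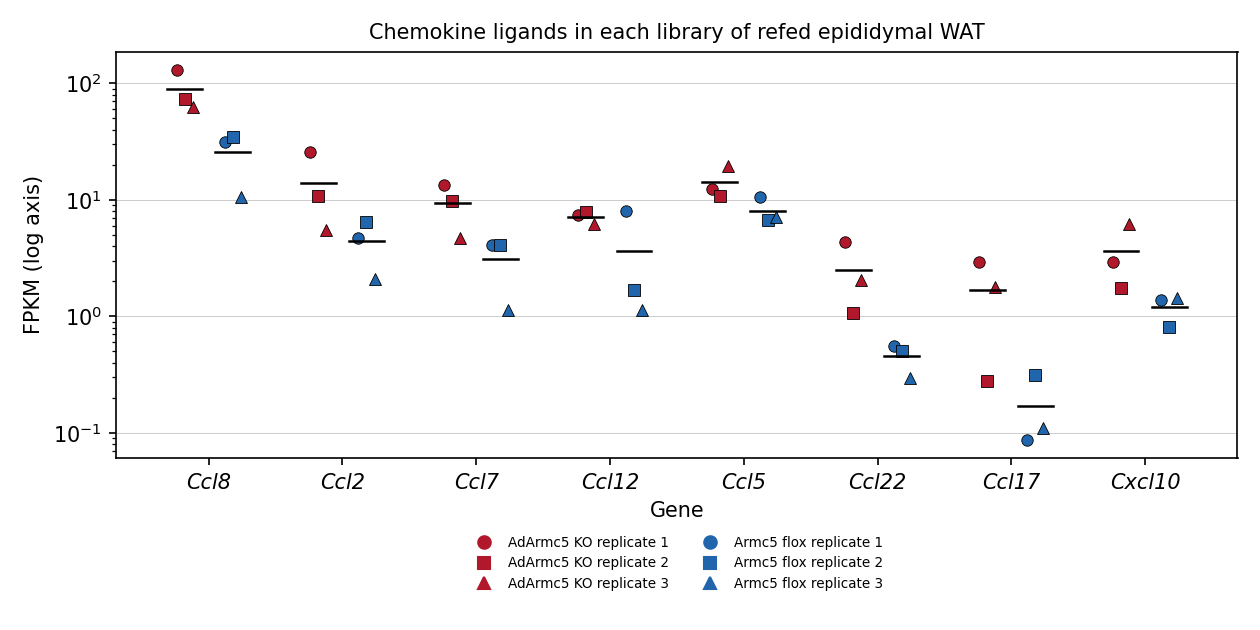
FPKM (log axis) of 8 ligands in each library, AdArmc5 KO (red) left of Armc5 flox (blue), with the replicate as symbol and the group mean as a bar. *Ccl8* lies between 62.9 and 130.3 FPKM in AdArmc5 KO and between 10.7 and 34.4 FPKM in Armc5 flox, and *Ccl12* is low in 2 of the 3 Armc5 flox libraries. The same symbol in both genotypes does not mark a pair.

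The ligands of CCR1, a receptor of monocytes and neutrophils, were less uniform. *Ccl5* (RANTES), which T cells and NK cells store and macrophages induce, was at 12.5, 10.8 and 19.4 FPKM in AdArmc5 KO, against 10.5, 6.68 and 7.06 FPKM in Armc5 flox. AdArmc5 KO replicate 2 and Armc5 flox replicate 1 were nearly equal, and the log2 fold change was 0.73 (standard error 0.26, unadjusted p = 0.0288, limma). Without the library labelled AdArmc5 KO replicate 3 it was 0.50 (unadjusted p = 0.0754), without Armc5 flox replicate 2 it was 0.62 (0.0892) and without Armc5 flox replicate 3 it was 0.66 (0.0843). *Ccl6*, a mouse chemokine of resident macrophages, had the highest mean FPKM of the family, with 230.2, 157 and 86.6 FPKM in AdArmc5 KO, against 79.2, 254 and 53.3 FPKM in Armc5 flox. Its highest library was thus an Armc5 flox one, and the log2 fold change was 0.51 with a 95% interval of −1.03 to 2.04. Its neighbour *Ccl9* was at 62.7, 35.7 and 20.2 FPKM in AdArmc5 KO, against 15.6, 49.7 and 12.9 FPKM in Armc5 flox, and followed the same order of libraries within each genotype. Without Armc5 flox replicate 2, the log2 fold change was 1.16 for *Ccl6* (unadjusted p = 0.0468) and 1.27 for *Ccl9* (unadjusted p = 0.0401). Without Armc5 flox replicate 3 it was 0.041 for *Ccl6* and 0.34 for *Ccl9*. Leaving out AdArmc5 KO replicate 1 gave 0.18 for *Ccl6* and 0.29 for *Ccl9*, and leaving out the one labelled AdArmc5 KO replicate 3 gave 0.88 for *Ccl6* and 1.09 for *Ccl9*. Without Armc5 flox replicate 1 it was 0.32 for *Ccl6*.

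*Ccl3* and *Ccl4* encode MIP-1alpha and MIP-1beta, made by activated macrophages and lymphocytes. *Ccl3* was at 2.03, 0.762 and 1.55 FPKM in AdArmc5 KO, against 0.962, 1.504 and 1.92 FPKM in Armc5 flox, a log2 fold change of −0.02. *Ccl4* stayed below the filter at 1.63, 0.839 and 1.01 FPKM in AdArmc5 KO, against 0.488, 0.440 and 0.305 FPKM in Armc5 flox. Its groups did not overlap, as for 5.61% of genes below the filter in this direction, and the counts behind it were 13 to 20 fragments in AdArmc5 KO and 4 to 8 in Armc5 flox. The 2 genes overlap in the annotation, so fragments in the shared stretch could be counted for either.

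The ligands of CCR4, which dendritic cells and macrophages make and which draw regulatory and TH2 T cells, were expressed at low levels. *Ccl22* was at 4.39, 1.07 and 2.05 FPKM in AdArmc5 KO, against 0.561, 0.501 and 0.294 FPKM in Armc5 flox. All 3 AdArmc5 KO libraries were above all 3 Armc5 flox libraries, and it was only through AdArmc5 KO that the gene passed the filter, so that a difference was built into its entry. It had 172, 56 and 136 fragments in AdArmc5 KO, against 31, 23 and 13 in Armc5 flox, and the counting interval of the lowest AdArmc5 KO library (42.3 to 72.7) overlapped that of the highest Armc5 flox library (21.1 to 44.0), before scaling to depth. The log2 fold change was 1.16 (standard error 0.36, unadjusted p = 0.0169, limma), and 1.21 (unadjusted p = 0.0374) without the library labelled AdArmc5 KO replicate 3 and 1.08 (unadjusted p = 0.0523) without Armc5 flox replicate 3. It was 2.06 at a pseudocount of 0.1 and 2.23 in normalized counts. *Ccl17* did not pass the filter. It had 24, 3 and 25 fragments in AdArmc5 KO, against 1, 3 and 1 in Armc5 flox, so AdArmc5 KO replicate 2 was at the level of Armc5 flox while the other 2 libraries were above it. *Cx3cl1* lies between these 2 genes within 66.4 kb of chromosome 8 and did not share their pattern.

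For CCR3, the eosinophil receptor, the ligands did not separate the genotypes. *Ccl11* (eotaxin-1), made by adipose stromal cells, was at 78.1, 43.9 and 33.7 FPKM in AdArmc5 KO, against 31.6, 73.0 and 33.4 FPKM in Armc5 flox. *Ccl24* (eotaxin-2), a macrophage product, was at 12.3, 3.27 and 4.22 FPKM in AdArmc5 KO, against 5.02, 6.46 and 7.14 FPKM in Armc5 flox. Both ranges overlapped, with log2 fold changes of 0.19 and −0.10. *Ccl26* was listed at 0 in all libraries, which allows up to 3 fragments in each.

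Among the homeostatic CC ligands, no member separated the genotypes. *Ccl21a*, the CCR7 ligand of lymphatic vessels, was at 2.53, 139 and 68.3 FPKM in AdArmc5 KO, against 83.9, 18.9 and 32.02 FPKM in Armc5 flox. Its lowest and its highest library were both AdArmc5 KO, and the log2 fold change of −0.24 had a 95% interval of −3.59 to 3.12. *Ccl19*, the other CCR7 ligand, was at 2.98, 11.7 and 16.4 FPKM in AdArmc5 KO, against 18.6, 4.24 and 7.40 FPKM in Armc5 flox, and was also lowest in AdArmc5 KO replicate 1. *Ccl25*, the CCR9 ligand, and *Ccl27a*, a CCR10 ligand, stayed between 1.52 and 7.51 FPKM in all libraries, with log2 fold changes of 0.14 and 0.10. *Ccl27a* overlaps the gene *Il11ra1* in the annotation, so its fragments could be counted for either. *Ccl28*, an epithelial chemokine, was at 0.246, 16.4 and 0.208 FPKM in AdArmc5 KO, against 18.6, 0.260 and 0.197 FPKM in Armc5 flox. The 2 libraries with *Ccl28* were those with *Foxj1*, and the part of the epithelium in its level was not tested. *Ccl20*, *Ccl21c* and *Ccl27b* were listed at 0 in all libraries, and *Ccl21b* at 0 in all but Armc5 flox replicate 1, which had 7 fragments. The *Ccl21* and *Ccl27* genes are near-identical copies, so the split between copies is uncertain.

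Of the CXCR3 ligands, which interferon induces and which draw effector T cells, *Cxcl10* was the only member whose groups did not overlap. *Cxcl10* was at 2.93, 1.75 and 6.19 FPKM in AdArmc5 KO, against 1.38, 0.809 and 1.44 FPKM in Armc5 flox. The library labelled AdArmc5 KO replicate 3 had the highest value, and the log2 fold change was 0.96 (standard error 0.37, unadjusted p = 0.0369, limma). Without that library it was 0.59 (unadjusted p = 0.0754), and of the other 5 libraries only leaving out AdArmc5 KO replicate 2 kept an unadjusted p under 0.05 (1.28). *Cxcl9* was at 16.1, 10.4 and 16.98 FPKM in AdArmc5 KO, against 14.4, 15.2 and 9.54 FPKM in Armc5 flox, so the ranges overlapped and the log2 fold change was 0.14 with a 95% interval of −0.46 to 0.74. The difference between these neighbours was not tested. *Cxcl11* had 1 to 21 fragments in a library and did not pass the filter. *Cxcl10* and *Cxcl11* overlap the gene *Art3* in the annotation.

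The ligands of CXCR2, which draw neutrophils, were all below the filter. Their summed FPKM was 3.20, 1.11 and 0.628 in AdArmc5 KO, against 0.802, 1.84 and 0.687 in Armc5 flox, and *Cxcl1* and *Cxcl2* were highest in AdArmc5 KO replicate 1, at 1.88 and 1.06 FPKM. *Cxcl5* had 4, 3 and 2 fragments in AdArmc5 KO, against 0, 0 and 1 in Armc5 flox. *Cxcl15* was listed at 0 in all libraries and *Cxcl3* in 4 of the 6.

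The remaining ligands belong to none of the groups above, and for some no receptor is established. *Cxcl12*, the stromal ligand of CXCR4 that holds stem cells and leukocytes in place, varied little, at 81.9, 96.4 and 103 FPKM in AdArmc5 KO, against 114, 91.7 and 111 FPKM in Armc5 flox. Its log2 fold change was −0.17 with a 95% interval of −0.55 to 0.21. *Cxcl14* was at 4.80, 5.09 and 10.7 FPKM in AdArmc5 KO, against 5.99, 1.68 and 1.28 FPKM in Armc5 flox, with Armc5 flox replicate 1 above 2 of the AdArmc5 KO libraries. Its log2 fold change was 1.09 (standard error 0.49, unadjusted p = 0.0660, limma), 1.59 (unadjusted p = 0.00491) without that library and 0.77 (unadjusted p = 0.188) without the library labelled AdArmc5 KO replicate 3. With both libraries that held *Foxj1* left out it was 1.735 (unadjusted p = 0.00755). *Cxcl13*, the CXCR5 ligand that gathers B cells, had the lowest log2 fold change of the family at −0.82 (standard error 0.48, unadjusted p = 0.138, limma). It was at 2.11, 6.16 and 3.19 FPKM in AdArmc5 KO, against 4.47, 14.3 and 5.10 FPKM in Armc5 flox, and AdArmc5 KO replicate 2 lay inside the range of Armc5 flox. Without Armc5 flox replicate 2, its highest library, the log2 fold change was −0.35, and with AdArmc5 KO replicate 1 also left out it was −0.08. With both libraries that held *Foxj1* left out it was −1.42 (unadjusted p = 0.0369). *Cxcl16*, a membrane-bound ligand of CXCR6, was at 9.58, 13.05 and 8.35 FPKM in AdArmc5 KO, against 12.6, 7.39 and 5.39 FPKM in Armc5 flox. Its log2 fold change was 0.31, with 0.61 (unadjusted p = 0.0434) without Armc5 flox replicate 1, 0.064 (unadjusted p = 0.831) without Armc5 flox replicate 3 and 0.14 (unadjusted p = 0.682) when AdArmc5 KO replicate 2 was left out. *Cxcl16* overlaps the gene *Zmynd15* in the annotation. *Cx3cl1* (fractalkine), the membrane-bound ligand of CX3CR1, was at 5.06, 16.7 and 8.86 FPKM in AdArmc5 KO, against 18.0, 3.56 and 6.32 FPKM in Armc5 flox, with its highest value of each genotype in the libraries that held *Foxj1*. The same held, among others, for *Ccl12*, *Ccl21a*, *Ccl28*, *Cxcl16* and *Cx3cr1*. *Cxcl17* had at most 4 fragments in a library.

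**Figure D3:**
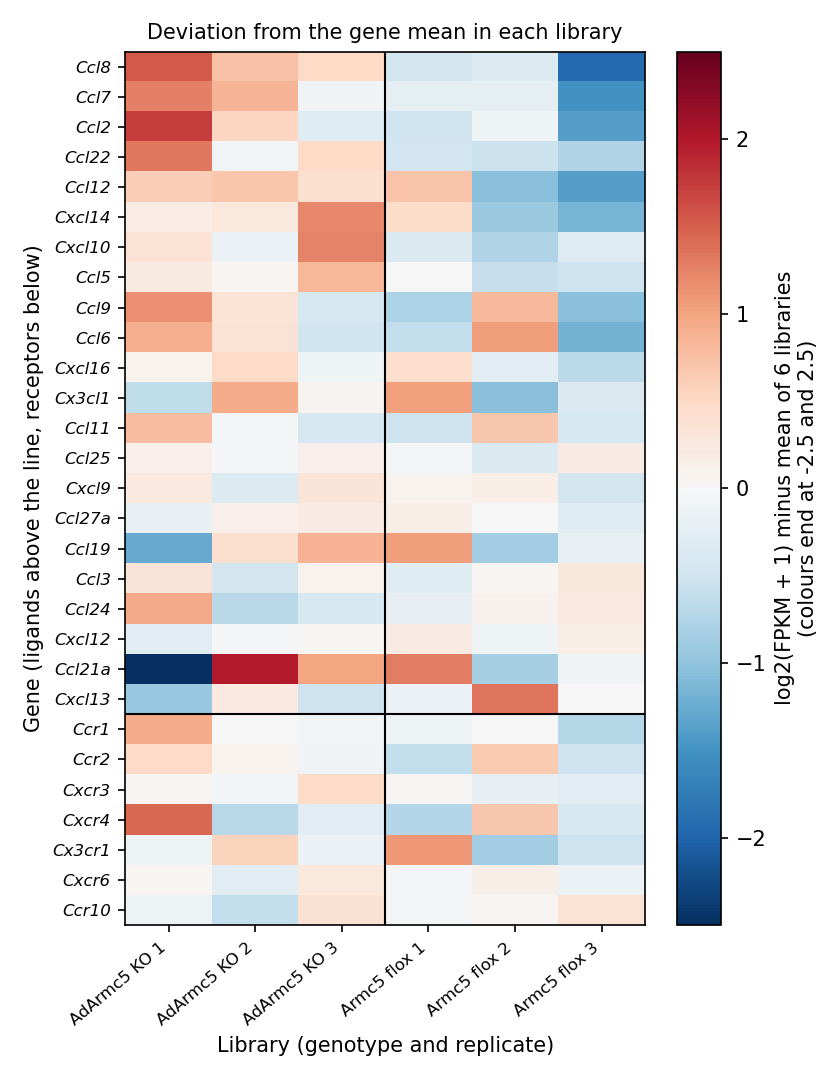
log2(FPKM + 1) of each tested ligand (above the line) and receptor (below it) minus its mean over the 6 libraries, for 22 ligands and 7 of the 8 receptors, with the 3 AdArmc5 KO libraries left of the 3 Armc5 flox libraries, red for above and blue for below that mean. Rows run from the highest to the lowest log2 fold change within each class. *Ccl6*, *Ccl9*, *Ccr2* and *Cxcr4* are red in both AdArmc5 KO replicate 1 and Armc5 flox replicate 2.

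The receptors, which mark the responding leukocytes, had smaller log2 fold changes than the MCP genes. *Ccr2*, the monocyte receptor, was the most abundant at 19.3, 14.5 and 12.7 FPKM in AdArmc5 KO, against 8.48, 21.9 and 9.17 FPKM in Armc5 flox. Armc5 flox replicate 2 was the highest of all libraries, and the log2 fold change was 0.32 (standard error 0.36, unadjusted p = 0.408, limma). Without Armc5 flox replicate 2, it was 0.73 (unadjusted p = 0.0148). With that library and AdArmc5 KO replicate 1 both left out, a choice made after the values were seen, it was 0.57 (unadjusted p = 0.0213). It was 0.094 without Armc5 flox replicate 1, 0.14 without Armc5 flox replicate 3 and 0.16 when AdArmc5 KO replicate 1 was left out.

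*Ccr1*, on monocytes and neutrophils, had the highest log2 fold change of the receptors at 0.58 (standard error 0.33, unadjusted p = 0.123, limma), with 6.29, 2.91 and 2.69 FPKM in AdArmc5 KO, against 2.51, 2.81 and 1.34 FPKM in Armc5 flox. AdArmc5 KO replicate 1 was well above the Armc5 flox libraries, and the library labelled AdArmc5 KO replicate 3 was inside their range. Without AdArmc5 KO replicate 1 the log2 fold change was 0.27 (unadjusted p = 0.344), below that of *Cxcr3* in the same fit (0.36), and without Armc5 flox replicate 3 it was 0.37. *Cxcr4*, the CXCL12 receptor, was at 18.6, 3.46 and 4.99 FPKM in AdArmc5 KO, against 3.34, 10.5 and 4.49 FPKM in Armc5 flox, with 1 high library in each genotype. *Cxcr3*, on effector T cells and NK cells, was at 1.89, 1.67 and 2.89 FPKM in AdArmc5 KO, against 1.84, 1.42 and 1.29 FPKM in Armc5 flox. Its log2 fold change of 0.31 became 0.15 when the library labelled AdArmc5 KO replicate 3 was left out. *Cx3cr1*, on patrolling monocytes and some macrophages, was at 1.59, 3.11 and 1.55 FPKM in AdArmc5 KO, against 4.96, 0.548 and 0.962 FPKM in Armc5 flox. *Cxcr6* lay between 0.743 and 1.52 FPKM and *Ccr10* between 0.703 and 2.40 FPKM, with overlapping groups. *Cxcr6* overlaps *Fyco1* and *Ccr10* overlaps *Cntnap1* in the annotation.

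**Figure D4:**
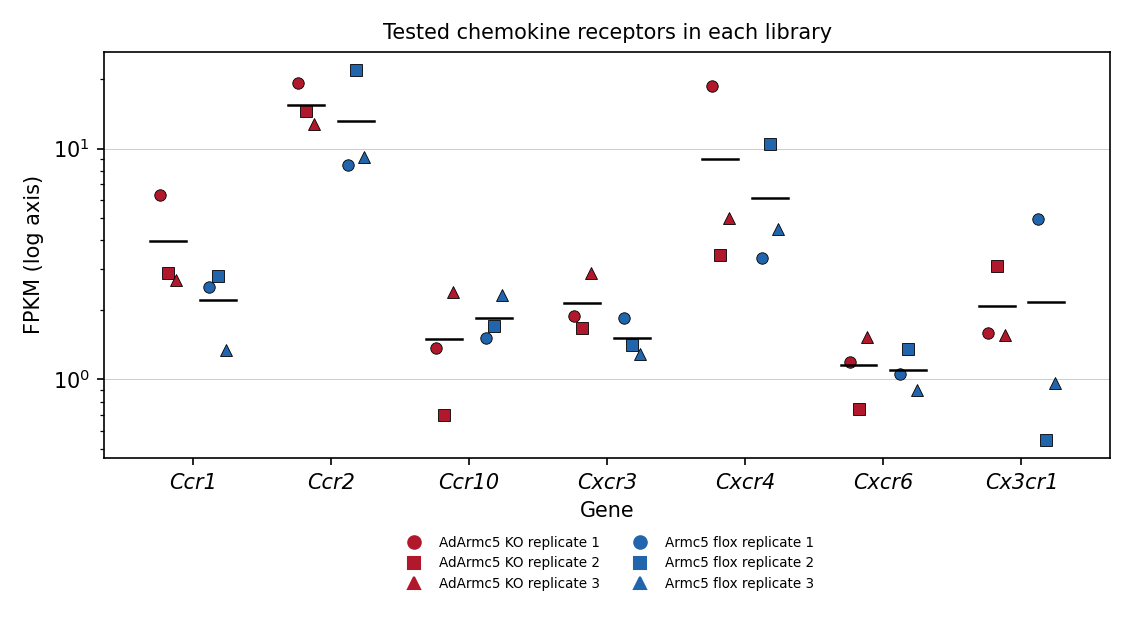
FPKM (log axis) of 7 of the 8 tested receptors in each library, AdArmc5 KO (red) left of Armc5 flox (blue), with the replicate as symbol and the group mean as a bar. The groups overlap for all 7 drawn, and Armc5 flox replicate 2 reaches 21.9 FPKM for *Ccr2* and 10.5 FPKM for *Cxcr4*.

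The other 9 receptors did not pass the filter. *Cxcr2*, the neutrophil receptor, was at 0.233, 0.260 and 0.284 FPKM in AdArmc5 KO, against 0.465, 0.672 and 0.361 FPKM in Armc5 flox. Every AdArmc5 KO library was below every Armc5 flox library, as for 1.08% of genes below the filter in this direction, and the log2 fold change in a fit without a filter was −0.25 (standard error 0.09, unadjusted p = 0.0306, limma). These values rest on 16 to 33 fragments in AdArmc5 KO and 28 to 54 in Armc5 flox. The log2 fold change was below 0 for 4 of the 5 neutrophil markers tested, and their summed FPKM, with 1 marker below the filter, was 67.3, 42.9 and 34.5 in AdArmc5 KO, against 36.2, 78.98 and 25.7 in Armc5 flox. Among them *S100a9* had a log2 fold change of −1.46, *Mmp9* of −0.81 and *S100a8* of 1.14. *Ccr3* was at 2.34, 0.181 and 0.112 FPKM in AdArmc5 KO, against 0.0669, 1.23 and 0.143 FPKM in Armc5 flox. It was high in the same 2 libraries as the sum of the 5 eosinophil markers in the table, which was 5.74, 1.47 and 1.14 FPKM in AdArmc5 KO, against 0.495, 3.23 and 1.19 FPKM in Armc5 flox. *Ccr7*, on activated dendritic cells and naive T cells, was at 2.36 FPKM in AdArmc5 KO replicate 1 and between 0.164 and 0.627 FPKM in the other libraries. *Ccr4*, *Ccr6*, *Ccr8*, *Ccr9*, *Cxcr1* and *Cxcr5* stayed at or below 0.415 FPKM.

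Ligands and receptors of a pair need not come from the same cells, and their levels are set side by side without a test. The 3 CCR2 ligands overlapped between genotypes in their sum, as did *Ccr2*. *Ccl8* did not overlap while *Ccr8* stayed between 0.0318 and 0.0905 FPKM, on 1 to 3 fragments. *Ccl22*, which passed the filter only through AdArmc5 KO, did not overlap while its receptor *Ccr4* stayed between 0.0357 and 0.144 FPKM, on 3 to 10 fragments. Among all genes tested, 3.54% did not overlap with AdArmc5 KO higher. *Cxcl12* was at least at 81.9 FPKM in all libraries while *Cxcr4* spanned 3.34 to 18.6 FPKM.

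Related genes outside the symbol rule were taken from lists of the pathway. Of 13 chemokines, atypical receptors and chemerin genes under other symbols, 10 were tested, 7 with a log2 fold change above 0 and 3 below, and 1 was higher at an unadjusted p under 0.05, beside 43.5% above 0 and 2.18% higher among all genes tested. This was *Ackr4*, a scavenger of CCL19, CCL21 and CCL25, at 3.60, 2.24 and 1.66 FPKM in AdArmc5 KO, against 1.47, 0.83 and 1.13 FPKM in Armc5 flox (log2 fold change 0.68, unadjusted p = 0.0340, adjusted p = 0.983, limma). *Rarres2*, which encodes the adipokine chemerin, was at 516, 427 and 176 FPKM in AdArmc5 KO, against 194, 289.6 and 181 FPKM in Armc5 flox, and overlapped. The unadjusted p of *Ackr4* was above 0.05 with any of 4 single libraries left out, with a log2 fold change of 0.46 when this was AdArmc5 KO replicate 1 and of 0.57 when it was Armc5 flox replicate 2. Of 30 tested genes that signal below chemokine receptors, 20 were above 0 and 10 below, with a median of 0.18, and 2 were higher at an unadjusted p under 0.05, a count that was 7 without Armc5 flox replicate 2 and 0 without Armc5 flox replicate 3. The median was 0.047 when AdArmc5 KO replicate 1 was left out and 0.056 when Armc5 flox replicate 3 was, with 17 of the 30 above 0 in each, and 0.33 when Armc5 flox replicate 2 was. *Rgs1*, which shortens the signal of these receptors, was at 8.41, 3.40 and 2.003 FPKM in AdArmc5 KO, against 0.564, 1.88 and 0.448 FPKM in Armc5 flox (log2 fold change 1.42, unadjusted p = 0.0238, adjusted p = 0.983, limma). Its unadjusted p was 0.0667 with Armc5 flox replicate 1 left out, 0.0765 with Armc5 flox replicate 3 left out and 0.0968 with both libraries that held *Foxj1* left out. *Gng2*, a G protein gamma subunit, had a log2 fold change of 0.51.

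Markers of cells that make or respond to chemokines differed in direction between cell types. All 17 macrophage markers tested had a log2 fold change above 0, from 0.08 to 1.22 with a median of 0.38. At an unadjusted p under 0.05, 3 of the 17 were higher, beside 2.18% of all genes tested, namely *Siglec1* (1.22), *Fcgr1* (0.93) and *Cd68* (0.79). Whether these 3 reflect more macrophages or more RNA per cell was not tested. The number above 0 was 12 with AdArmc5 KO replicate 1 left out (median 0.24), 14 with Armc5 flox replicate 1 left out (0.26), 15 with Armc5 flox replicate 3 left out (0.24) and 16 with the library labelled AdArmc5 KO replicate 3 left out (0.55), and the median was 0.68 with Armc5 flox replicate 2 left out. The number at an unadjusted p under 0.05 was 9 when Armc5 flox replicate 2 was left out, and 2 when Armc5 flox replicate 3 or AdArmc5 KO replicate 1 was. All 7 monocyte markers tested were above 0 (median 0.51), all 7 endothelial markers and both B cell markers were below 0 (medians −0.14 and −0.41), and of 4 dendritic cell markers 2 were above and 2 below (median −0.06). The 4 T cell, 2 NK cell and 4 mast cell markers tested were all above 0 (medians 0.21, 0.25 and 0.34). Of 10 progenitor and fibroblast markers 7 were above 0 (median 0.11). Of 10 adipocyte markers 5 were above 0 (median −0.10), and of 8 mesothelial markers 1 was (median −0.72). Summed FPKM of the macrophage markers was 2496, 1601 and 1410 in AdArmc5 KO, against 1083, 2150 and 1127 in Armc5 flox, so Armc5 flox replicate 2 lay inside the AdArmc5 KO range, and none of the 17 was at 0. With the mean of the macrophage markers as a covariate, the log2 fold change of *Ccl8* was 1.30 (unadjusted p = 0.0441), that of *Ccl7* 0.87 (unadjusted p = 0.145), that of *Ccl6* −0.49 and that of *Ccr2* −0.26, and the median of the receptors was −0.07. In the same fit it was 0.59 for *Ccl2* (unadjusted p = 0.284), 0.86 for *Ccl22* (unadjusted p = 0.0856), 0.93 for *Ccl5* (unadjusted p = 0.0257), 1.19 for *Cxcl10* (unadjusted p = 0.0415) and 1.48 for *Cxcl14* (unadjusted p = 0.0463), and the median of the ligands was 0.50. The 26 genes of the type I interferon response were all above 0 with a median of 1.21, and 24 of them were higher at an unadjusted p under 0.05, or 19 when the library labelled AdArmc5 KO replicate 3 was left out. Of these, *Irf7*, a transcription factor of the response, had the lowest p, with 40.2, 33.2 and 49.0 FPKM in AdArmc5 KO, against 13.05, 10.4 and 10.7 FPKM in Armc5 flox (adjusted p = 0.584, limma). Of 14 genes of the interferon-gamma response, 13 were above 0 with a median of 0.73, and of 11 tested genes of the NF-kappaB response 10 were above 0 with a median of 0.12. The macrophage covariate includes *Siglec1*, *Fcgr1* and *Cd68*, whose groups did not overlap, so it may carry part of the difference between genotypes. No term for interferon was fitted, and the part of macrophage content or of interferon in the chemokine values was not tested.

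**Figure D5:**
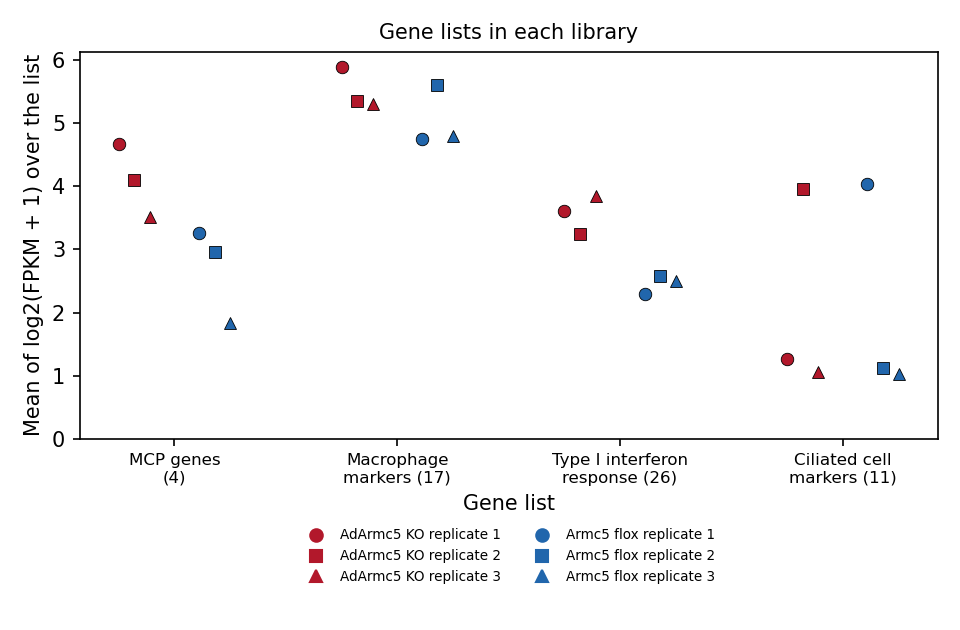
Mean of log2(FPKM + 1) over 4 gene lists in each library, AdArmc5 KO (red) left of Armc5 flox (blue), with the replicate as symbol. The MCP genes lie between 3.51 and 4.67 in AdArmc5 KO and between 1.84 and 3.27 in Armc5 flox, macrophage markers overlap, the interferon list lies between 3.25 and 3.85 in AdArmc5 KO and between 2.29 and 2.58 in Armc5 flox, and ciliated cell markers are high in 1 library of each genotype.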

How the data were processed

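Polyadenylated RNA of refed epididymal WAT was sequenced by the authors as stranded, paired-end libraries, 3 from AdArmc5 KO and 3 from Armc5 flox, and genotype and replicate were taken from the submitters' labels. The submitters' processing notes name TopHat2 (version 2.0.13) with Bowtie2 (2.2.3) and SAMtools (0.1.19) for mapping to mm10, and the authors made the FPKM values with Cuffnorm (2.2.1). The gene annotation and strand setting of the counting were not stated in the methods or labels. A second deposited signal, normalized counts, is the fragments of a gene scaled by a factor per library, of which 98.7% to 99.0% were whole multiples of 1 fragment within 0.1 fragment. As fragments were not whole for all genes, no test for counts was run, and fragment numbers are given only to show the depth behind a value.

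FPKM were analysed as log2(FPKM + 1), which understates the change of low genes, over the 12670 of 24346 genes with at least 1 FPKM in at least 3 of the 6 libraries. limma (version 3.58.1, R version 4.3.3) was fitted to all 6 libraries with genotype as the only term and a mean-variance trend, and p-values were adjusted by Benjamini and Hochberg over all genes tested. Intervals of fragment numbers are exact Poisson intervals at 95% and cover counting error only, and a count of 0 allows up to 3 fragments. Positions and promoters are from RefSeq (GRCm38.p6, the patch release of mm10), by NCBI Gene ID for all 55 members.

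Values in every library were printed for members with an unadjusted p under 0.05, tested members whose groups did not overlap, the 12 members with the highest mean FPKM and members that stand beside these, and of the other lists up to 4 tested genes with the smallest p. The counts and medians of the receptors cover all of them, but 1 receptor is not reported here by itself. The members, groups and lists were chosen with earlier results of these data known. The alternatives were other pseudocounts, filters and scalings, a fit without the trend, a block for the replicate number, normalized counts in place of FPKM, each library left out in turn, both libraries with genes of ciliated cells left out, and a macrophage covariate. A further 9 columns of per-sample values, 6 of processed log2 values and 3 of fold changes between single libraries, were not used, nor were the authors' own fold changes and p-values between genotypes.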

Additional observations from a re-analysis of the deposited data

How the results depend on the processing

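The 18 alternatives left 0 genes past an adjusted p of 0.05 in limma, as did the fit reported. *Ccl8* kept its direction and an unadjusted p under 0.05 in all 18, with log2 fold changes of 1.30 to 2.17. *Ccl5* did so in 13, *Ccl7* in 12 and *Cxcl10* in 11, all with the same sign throughout. *Ccl22*, which passed the filter only through AdArmc5 KO, was under 0.05 in 15, with log2 fold changes of 0.79 to 2.23, and was at 0.0550 after quantile normalization, 0.0856 with the macrophage covariate and 0.0523 without Armc5 flox replicate 3. Ligands higher at an unadjusted p under 0.05 numbered 5 as reported, 3 after quantile normalization, 2 with AdArmc5 KO replicate 1 and Armc5 flox replicate 2 left out, and 1 to 7 when single libraries were left out. The count was lowest without Armc5 flox replicate 3, and it was 3 with AdArmc5 KO replicate 1 left out. Ligands lower at that threshold numbered 0 as reported, 1 with the ciliated libraries left out (*Cxcl13*), 1 with the macrophage covariate (*Ccl11*), and 0 to 1 when single libraries were left out (*Ccl24*, without AdArmc5 KO replicate 1). Receptors higher numbered 0 as reported, 2 with the pair of libraries above left out (*Ccr2* among them), and 0 to 2 when single libraries were left out, with *Cx3cr1* without Armc5 flox replicate 1 and *Ccr2* among those without Armc5 flox replicate 2. Without a filter, 1 receptor was lower (*Cxcr2*). The ligand median of 0.28 ranged from 0.12 to 0.50 and the receptor median of 0.31 from 0.17 to 0.50 when single libraries were left out. The receptor median was 0.038 without a filter, where 17 receptors entered, and −0.066 with the macrophage covariate.

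Of 29 genes, 12 kept their sign under every alternative and 17 did not. Those that changed sign were *Ccl19* at a pseudocount of 0.1 (−0.0080) and in normalized counts (−0.0093), *Cxcr6* after quantile normalization (−0.14), and, with the ciliated libraries left out, *Ccl24* (0.10) and *Ccl3* (0.041). With the macrophage covariate the log2 fold change was −0.50 for *Ccl11*, 1.52 for *Ccl21a*, −0.49 for *Ccl6*, −0.28 for *Ccl9*, −0.26 for *Ccr2*, 0.016 for *Cxcl12*, −0.040 for *Cxcl9*, −0.64 for *Cxcr4* and −0.075 for *Cxcr6*. With AdArmc5 KO replicate 1 and Armc5 flox replicate 2 left out, an alternative chosen after seeing the data, it was 0.89 for *Ccl21a*, −0.034 for *Ccl25* and −0.078 for *Cx3cr1*. When single libraries were left out, it ranged from −0.14 to 0.57 for *Ccl11*, −0.42 to 0.64 for *Ccl19*, −1.29 to 1.37 for *Ccl21a*, −0.60 to 0.22 for *Ccl24*, −0.0067 to 0.27 for *Ccl25*, −0.021 to 0.22 for *Ccl27a*, −0.20 to 0.20 for *Ccl3*, −0.49 to 0.0094 for *Ccr10*, −0.21 to 0.82 for *Cx3cl1*, −0.19 to 0.79 for *Cx3cr1*, −0.057 to 0.35 for *Cxcl9*, −0.33 to 0.74 for *Cxcr4* and −0.10 to 0.17 for *Cxcr6*. The cause of these changes was not tested.

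With the replicate number as a block, 6 ligands were higher at an unadjusted p under 0.05 and 1 was lower (*Cxcl13*), against 5 and 0 without the block. Deviations from the group means of libraries with the same number correlated at −0.53, −0.41 and 0.58, so the numbers were not taken to pair the samples, and not every library correlated best with its own number. AdArmc5 KO replicate 1 correlated best with Armc5 flox replicate 2 (0.68), AdArmc5 KO replicate 2 with Armc5 flox replicate 1 (0.75) and AdArmc5 KO replicate 3 with Armc5 flox replicate 3 (0.58), which is a hint from the data and not from the labels, and no such pairing was fitted. The planned tests for counts were not run, since fragments were not whole for all genes, and members on few fragments are limited by depth.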
